A study of Mus musculus with 3 samples.

Results

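The 10 circadian clock genes Per1, Per2, Per3, Cry1, Cry2, Clock, Nr1d1, Nr1d2, Dbp and Bhlhe40 were read on arrays of mouse cells of 3 genotypes, LIFR KO, gp130 KO and wildtype. Members were all non-control probes whose accession is a transcript of these genes. That gave 11 probes of 39429 on the array, for 10 of 20659 genes named there. The genes were picked after Per1 had been seen far higher on the LIFR KO array, so every value that sets that array against another is a description.

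The mammalian clock is a feedback loop of transcription. CLOCK with BMAL1 (Arntl) binds E-box sequences and switches on the Per and Cry genes, whose proteins return to the nucleus and hold CLOCK and BMAL1 in check. The same pair also drives Nr1d1, Nr1d2, Dbp and Bhlhe40, which form side loops or pass the rhythm on. Embryonic stem cells are known for lacking a running molecular rhythm until they differentiate, although they transcribe many of these genes. Per1 is also known as an early response gene that hormones and cyclic AMP signals raise within a short time, apart from any rhythm.

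The labels call all samples mESCs, mouse embryonic stem cells grown under standard conditions, and give 1 array to each genotype. The cytokine LIF binds the receptor chain LIFR, and gp130, the product of Il6st, is the partner chain with which it signals. How the knockouts were made, whether a line is 1 clone, and the hour at which cells were collected after feeding is not stated in any source used here. With 1 array a group there was no replicate, and hence no test and no error between cultures. Each difference below compares 2 arrays, and the 3 comparisons share arrays.

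Facts of the whole series that touch these genes are few. Between 58.3% and 65.5% of probes were well above background on an array, a flag the scanner software sets for each spot. The deleted genes were not marked off by their own probes, at log2 ratios of -0.39 for Lifr (LIFR KO over wildtype) and -0.11 for Il6st (gp130 KO over wildtype), and a probe outside a deleted part checks nothing. Of 12 pluripotency markers 8 were well above background on all arrays, while Sox2, Zfp42, Dppa3 and Fgf4 were so on none, the wildtype array included. Among the 8, Pou5f1 was dim, at 22.7 on the LIFR KO, 20.3 on the gp130 KO and 31.2 on the wildtype array. The lowest probes well above background had 16.7, 9.66 and 10.5 on these arrays. All 7 epithelial markers were well above background on every array. The summed signal of the epithelial markers was 76784 on the LIFR KO, 64171 on the gp130 KO and 60607 on the wildtype array, with Cldn4, whose spot lay in high local background, at a log2 ratio of LIFR KO over wildtype of 1.14. For 6 fibroblast markers the unscaled sum was 559, 377 and 364, and for 3 blood cell markers 68.1, 67.1 and 79.0. Of the 6 fibroblast markers 3 were well above background on every array and Pdgfrb on none, and Col1a1 had 257, 92.9 and 70.4. The median log2 ratio of the fibroblast markers for LIFR KO over wildtype was still -0.05, and 1 of 5 measured lay above 0. The part of these differences in the values below was not tested. The local background reached 25884 on the LIFR KO array, but no clock gene spot lay in a high local background.

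Per1, the period gene known for its fast response to outside signals, had a processed signal of 7165 on the LIFR KO array, 757 on the gp130 KO array and 938 on the wildtype array. The processed signal is the background-subtracted brightness of the spot. The LIFR KO array thus stood far above both others, which lay close together. After each array was scaled to the 75th percentile of its own probes, Per1 was 6.77-fold higher on the LIFR KO than on the wildtype array, a log2 ratio of 2.76 with a scanner error of 0.20. That error is the software's estimate for the spots and leaves out the scatter of cultures. Of 14039 genes compared outside high local background, Per1 ranked 4 from the top in this comparison. On the gp130 KO array Per1 was not higher, at a log2 ratio of -0.28 to wildtype, also with a scanner error of 0.20.

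Per2, the partner period gene, was dimmer but showed the same high array, with signals of 103.5 on the LIFR KO, 38.0 on the gp130 KO and 30.6 on the wildtype array. Its scaled log2 ratio of LIFR KO over wildtype was 1.58, with a scanner error of 0.24. For gp130 KO over wildtype the log2 ratio was 0.34, with a scanner error of 0.25. Per3, the third period gene, was not well above background on any array, with 4.15 on the LIFR KO, 5.89 on the gp130 KO and 3.36 on the wildtype array, so no ratio is given.

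**Figure D1:**
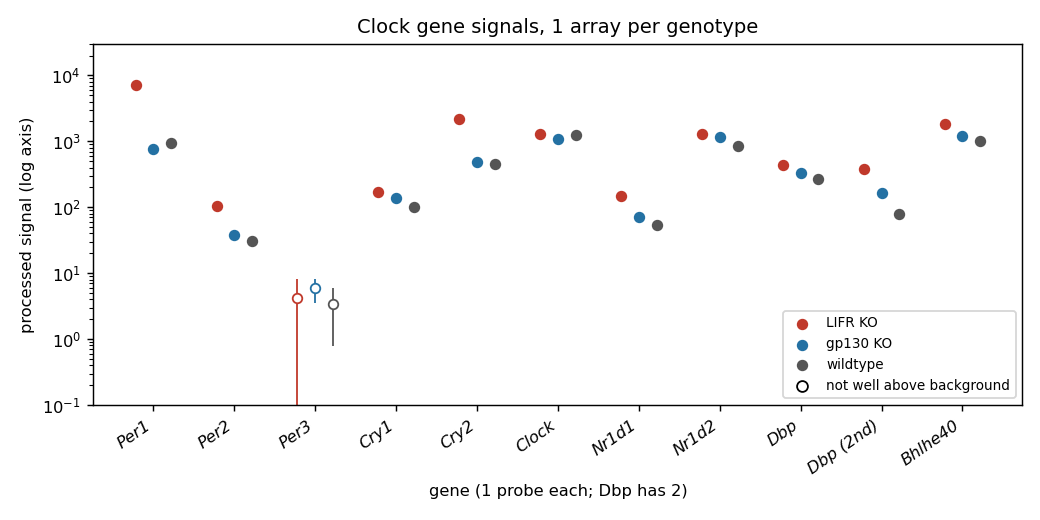
Processed signal (log axis) of each clock gene probe on the LIFR KO, gp130 KO and wildtype arrays, 1 array each, with bars for the scanner error, smaller than the point for most probes. The LIFR KO point of Per1, at 7165, lies far above the gp130 KO point at 757 and the wildtype point at 938, and open points mark Per3, which was not well above background.

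The cryptochromes, which join the PER proteins as repressors, did not move alike. Cry2 had a signal of 2170.0 on the LIFR KO, 488 on the gp130 KO and 448 on the wildtype array. As with Per1, the LIFR KO array stood apart, at 4.29-fold over wildtype and a log2 ratio of 2.10 with a scanner error of 0.20. Cry2 on the gp130 KO array had a log2 ratio of 0.15 to wildtype, inside its scanner error of 0.20. Cry1 had 169 on the LIFR KO, 136 on the gp130 KO and 101 on the wildtype array, so that both knockout arrays lay above wildtype by similar amounts. Its scaled log2 ratios to wildtype were 0.57 for the LIFR KO and 0.46 for the gp130 KO, each with a scanner error of 0.21.

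The promoters of Per1, Cry1 and Cry2 are shown because Per1 and Cry2 had the largest ratios and Cry1 is the near relative that did not follow Cry2. Each runs from 250 bases before to 50 bases after a transcript start, read on the strand of the gene from RefSeq sequence of build GRCm38.p6. Per1 has 2 starts in the table, at chr11:69098699-69098998 and chr11:69099902-69100201 on the plus strand. Cry1 lies at chr10:85185005-85185304 and Cry2 at chr2:92434020-92434319, both on the minus strand. Capitals mark matches on either strand to the E-box CACGTG, the core TGACG of the cyclic AMP response element (CRE), and the core AGGTCA of the element bound by ROR and REV-ERB receptors.
Per1 start 1: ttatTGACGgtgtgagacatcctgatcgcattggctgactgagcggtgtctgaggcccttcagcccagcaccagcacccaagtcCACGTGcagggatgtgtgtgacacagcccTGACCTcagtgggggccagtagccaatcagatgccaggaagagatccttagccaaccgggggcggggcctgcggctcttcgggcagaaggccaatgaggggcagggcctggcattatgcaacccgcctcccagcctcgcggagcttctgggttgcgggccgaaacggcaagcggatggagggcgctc
Per1 start 2: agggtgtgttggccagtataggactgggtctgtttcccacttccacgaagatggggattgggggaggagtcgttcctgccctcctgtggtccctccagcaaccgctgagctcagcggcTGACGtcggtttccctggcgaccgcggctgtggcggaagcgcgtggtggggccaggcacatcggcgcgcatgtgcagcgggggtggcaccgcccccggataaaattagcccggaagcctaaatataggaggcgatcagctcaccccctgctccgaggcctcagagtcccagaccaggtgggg
Cry1: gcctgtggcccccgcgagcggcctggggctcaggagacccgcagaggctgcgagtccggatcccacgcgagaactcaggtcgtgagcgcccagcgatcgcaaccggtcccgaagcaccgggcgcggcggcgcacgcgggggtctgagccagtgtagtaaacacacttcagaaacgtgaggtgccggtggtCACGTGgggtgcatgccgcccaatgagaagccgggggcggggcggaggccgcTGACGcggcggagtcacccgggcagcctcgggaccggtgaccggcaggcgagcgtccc
Cry2: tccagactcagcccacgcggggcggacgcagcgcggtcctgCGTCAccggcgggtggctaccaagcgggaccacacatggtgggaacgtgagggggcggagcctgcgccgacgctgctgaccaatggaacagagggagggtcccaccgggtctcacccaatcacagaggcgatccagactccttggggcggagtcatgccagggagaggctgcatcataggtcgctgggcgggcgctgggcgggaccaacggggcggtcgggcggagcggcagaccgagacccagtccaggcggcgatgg

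The E-box, to which CLOCK and BMAL1 are known to bind, stood 166 bases before the first Per1 start and 60 bases before the Cry1 start. It was found in 2 of 11 promoters of clock genes, against 7.15% of the 32851 promoters in the table. The CRE core stood 246 and 132 bases before the first and second Per1 starts, 8 before Cry1 and 209 before Cry2. It occurred in 4 of the 11 promoters and in 20.8% of all promoters, and the full palindrome TGACGTCA, which holds the core, in none of the 11 and in 1.79% of all. The receptor core occurred 137 bases before the first Per1 start, 77 before Nr1d2 and 119 before the third start of Clock, in 3 of 11 promoters against 16.3% of all. No motif searched was found in these windows of Dbp, Nr1d1 and Per3. Promoters of 8 of the 10 genes were in the table, and those of Per2 and Bhlhe40 were not analysed here. A match is a run of letters and not a measured binding site, and the Cry1 window held an E-box while the Cry2 window held none.

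**Figure D2:**
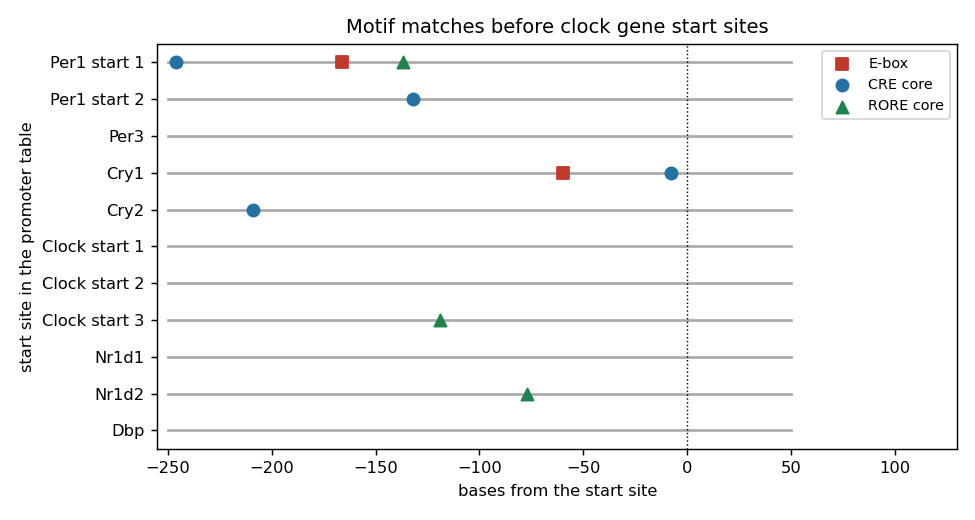
Positions of motif matches, in bases from the start site, in the 11 promoter windows of 8 clock genes. E-box matches lie 166 bases before the first Per1 start and 60 bases before the Cry1 start, and the windows of Dbp, Nr1d1 and Per3 hold no match.

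Clock, the gene of the activator that the PER and CRY proteins hold in check, differed little between arrays. Its signal was 1306 on the LIFR KO, 1087 on the gp130 KO and 1233 on the wildtype array. The scaled log2 ratios to wildtype were -0.09 for the LIFR KO and -0.15 for the gp130 KO, both inside the scanner error of 0.20.

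Nr1d1 and Nr1d2 encode the REV-ERB nuclear receptors, which repress Arntl in the second loop of the clock. Nr1d1 had a signal of 148 on the LIFR KO, 71.4 on the gp130 KO and 53.9 on the wildtype array, with the LIFR KO array again the highest. The scaled LIFR KO over wildtype ratio was 2.43-fold, a log2 ratio of 1.28, against a log2 ratio of 0.43 for gp130 KO over wildtype, both with a scanner error of 0.22. Nr1d2 behaved like Cry1 rather than like Nr1d1, with 1311 on the LIFR KO, 1165 on the gp130 KO and 853 on the wildtype array. Its log2 ratios to wildtype were 0.45 for the LIFR KO and 0.48 for the gp130 KO, and the 2 knockout arrays differed by a log2 ratio of -0.03.

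Dbp, a PAR bZIP factor that carries the rhythm to output genes, was read by 2 probes that gave unequal ratios. The brighter probe had 445 on the LIFR KO, 333 on the gp130 KO and 269 on the wildtype array, for scaled log2 ratios to wildtype of 0.55 in the LIFR KO and 0.34 in the gp130 KO. The second probe had 380.3 on the LIFR KO, 165 on the gp130 KO and 79.9 on the wildtype array. Its log2 ratios were 2.08 and 1.07, or 4.22-fold for LIFR KO over wildtype and 2.10-fold for gp130 KO over wildtype, with a scanner error of 0.21. Both probes gave the same order of arrays, LIFR KO above gp130 KO above wildtype, and which of them better follows the transcript was not tested. Bhlhe40, a repressor that competes for E-boxes, had 1805 on the LIFR KO, 1187 on the gp130 KO and 1011 on the wildtype array. Its log2 ratios to wildtype were 0.66 for the LIFR KO and 0.26 for the gp130 KO, with a scanner error of 0.20.

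**Figure D3:**
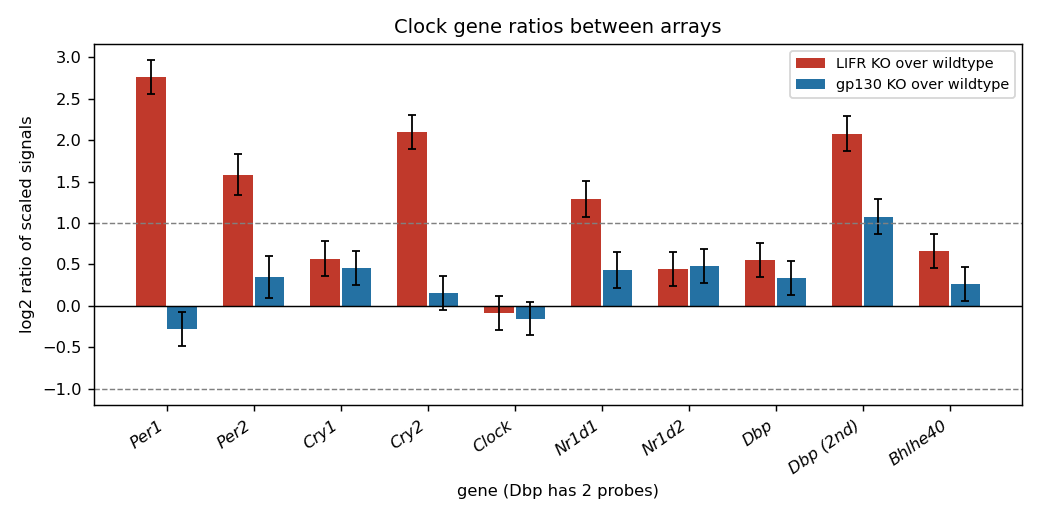
Log2 ratio of scaled signals over wildtype for the LIFR KO (left bar) and the gp130 KO (right bar), 1 array each, with the scanner error as error bars and dashed lines at 2-fold. Per1 stands at 2.76 in the LIFR KO and at -0.28 in the gp130 KO, while Cry1 and Nr1d2 have similar bars in both.

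Counted by gene, 4 of the 9 measured clock genes, Per1, Cry2, Per2 and Nr1d1, were at least 2-fold higher on the LIFR KO than on the wildtype array and none was 2-fold lower. The same bound was passed upward by 2.69% and downward by 1.63% of all 14558 genes compared. The median log2 ratio was 0.66 over the 9 clock genes and -0.03 over all genes. Of the 9 genes 8 lay above 0, with Clock below, where 42.9% of all genes lay above 0. With median centring Nr1d2 fell below 0 too, at -0.02. Because the genes were chosen with this contrast in view, nothing is read from these counts. With the second Dbp probe in place of the brighter one, 5 genes passed 2-fold. With the normexp background correction 2 did, Per1 and Cry2, while the dimmer Per2 and Nr1d1 came to log2 ratios of 0.54 and 0.59.

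On the gp130 KO array no clock gene was 2-fold higher or lower than on the wildtype array, against 0.979% and 0.805% of the 14906 genes compared. The 9 log2 ratios ranged from -0.28 for Per1 to 0.48 for Nr1d2, with a median of 0.34 beside 0.03 over all genes. Again 7 of the 9 lay above 0, here with Per1 and Clock below, where 54.7% of all genes did. The second Dbp probe, at 2.10-fold, was the exception to the absence of a 2-fold difference.

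The 2 knockout arrays set against each other gave 3 clock genes at least 2-fold higher on the LIFR KO array and none lower, against 2.12% and 1.29% of 14772 genes. They were Per1 at 8.22-fold, Cry2 at 3.86-fold and Per2 at 2.37-fold, and Nr1d1 followed at 1.80-fold. Per2 came under 2-fold with median centring, at a log2 ratio of 0.70, and with normexp, at 0.45 on all spots and 0.64 without spots in high local background, which left 2 genes. The remaining 5 had log2 ratios between -0.03 and 0.40, with a median over all 9 of 0.40 beside -0.05 over all genes. At the median scatter of repeated spots of a probe, the 95% interval of a log2 ratio of 2 spots reached 0.14 to each side. Many probes scattered more, with a 90th percentile of the log2 standard deviation of 0.13 to 0.21 against medians near 0.05. The bound of 0.14 is a measure of spots within an array and no measure of differences between arrays or cultures. With the arrays scaled to the 75th percentile, the LIFR KO over gp130 KO log2 ratios of Cry1, Clock and Nr1d2 lay inside it. Those of the other 6 lay outside it, though Dbp, at 0.21 by its brighter probe, lay near its scanner error of 0.20. Bhlhe40 was at 0.40, also with a scanner error of 0.20. The LIFR KO array was the highest of the 3 for 7 of the 9 genes, against 29.9% of 13118 genes well above background on all arrays. The wildtype array was the lowest for 7, against 35.7% of those genes. This order depended on the scaling. With arrays centred on their medians, which placed the LIFR KO array lowest for 90.6% of all genes, it was the highest for 4 clock genes, Per1, Per2, Cry2 and Nr1d1, and wildtype was the lowest for 6. The LIFR KO over gp130 KO log2 ratios of the brighter Dbp probe and of Bhlhe40 then turned to -0.33 and -0.15. Those of Cry1, Clock and Nr1d2 came to -0.44, -0.49 and -0.58.

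**Figure D4:**
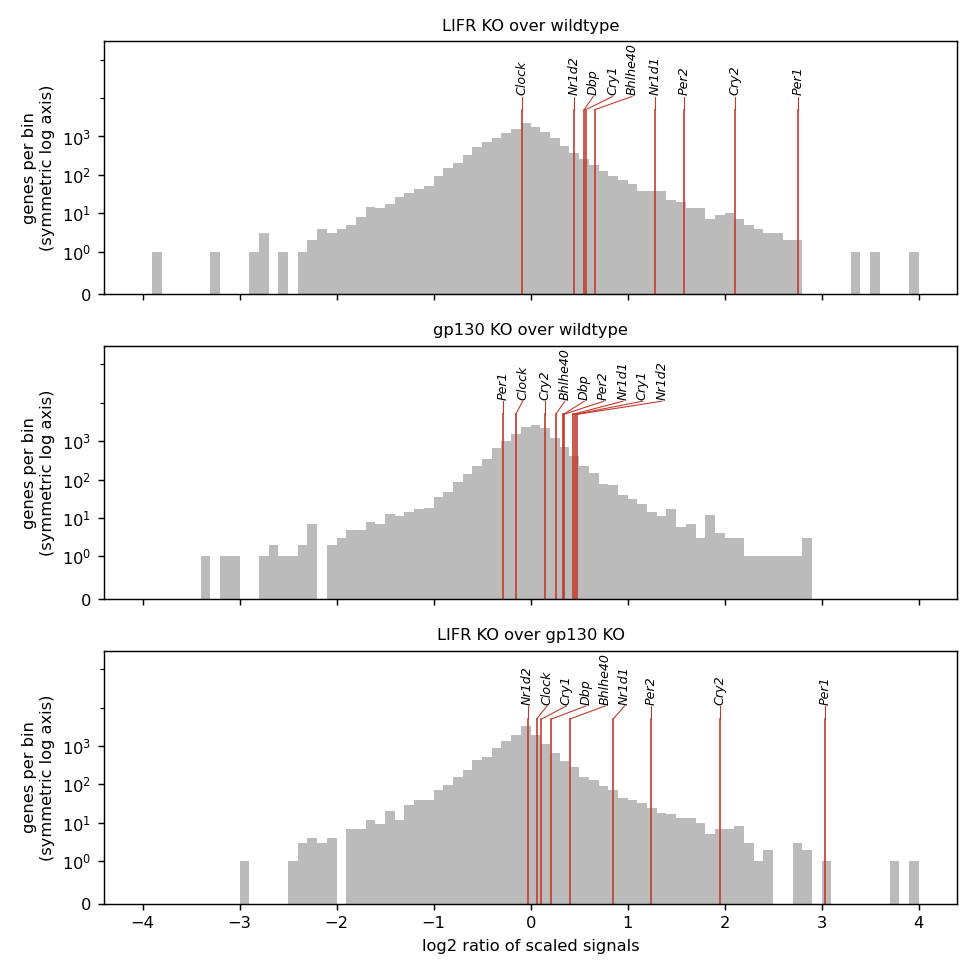
Histograms of the log2 ratios of all genes outside high local background (grey, symmetric log axis, ratios past 4 placed in the end bins) for LIFR KO over wildtype, gp130 KO over wildtype and LIFR KO over gp130 KO, with red lines at the clock genes, whose names are shifted sideways where lines crowd. Per1 lies at 2.76, -0.28 and 3.04, and the 9 clock genes spread less in the gp130 KO comparison, from -0.28 to 0.48.

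A wider list held 30 other genes of the clock machinery, 29 of them on the array. Of 26 measured, Ciart was at least 2-fold higher and Rorb at least 2-fold lower on the LIFR KO than on the wildtype array, with a median log2 ratio of 0.14 beside -0.03 over all genes. These counts, 1 of 26 each way, stand beside shares of 2.69% and 1.63% over all genes. Counts of 1 gene are read as no result about the list. On the gp130 KO array none of the 26 passed 2-fold either way, where 0.979% and 0.805% of all genes did, with a median of 0.19. Arntl, the gene of the CLOCK partner BMAL1, had 1445 on the LIFR KO, 1005 on the gp130 KO and 1138 on the wildtype array, or log2 ratios to wildtype of 0.17 and -0.15. The activator gene Npas2 and the receptor gene Rora were dim, with no array on which they stood well above background. Rorb, a further receptor gene of that family, had 27.6 on the LIFR KO, 33.7 on the gp130 KO and 50.4 on the wildtype array. Its second probe gave a log2 ratio of 0.0035 for LIFR KO over wildtype against -1.05 for the first, so the lower level rests on 1 probe.

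Of the other repressor genes 3 of 4 lay above 0 in each knockout over wildtype, as did both PAR bZIP output genes. Of 4 measured activator and nuclear receptor genes, 1 lay above 0 in the LIFR KO and 0 in the gp130 KO. Of all 26 measured other clock genes, 17 did in the LIFR KO and 18 in the gp130 KO. Over all genes 42.9% did in the LIFR KO and 54.7% in the gp130 KO. Ciart, whose protein represses CLOCK and BMAL1, had 1215 on the LIFR KO, 498 on the gp130 KO and 532 on the wildtype array, 2.02-fold higher in the LIFR KO than in wildtype and at a log2 ratio of -0.07 in the gp130 KO. Nfil3, which opposes DBP at shared sites, had log2 ratios to wildtype of 0.84 in the LIFR KO and 0.19 in the gp130 KO, and the repressor gene Bhlhe41 had 0.34 and 0.24. Tef, a PAR bZIP relative of Dbp, was higher by similar amounts on both knockout arrays, with 1883 on the LIFR KO, 1560.5 on the gp130 KO and 874 on the wildtype array, or log2 ratios of 0.93 and 0.86. Hlf, the other relative, was dim, with 24.1 on the LIFR KO, 19.0 on the gp130 KO and 16.3 on the wildtype array. The kinase genes Csnk1d and Csnk1e, whose products mark PER proteins for breakdown, stayed within a log2 ratio of 0.39 of wildtype on both knockout arrays.

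**Figure D5:**
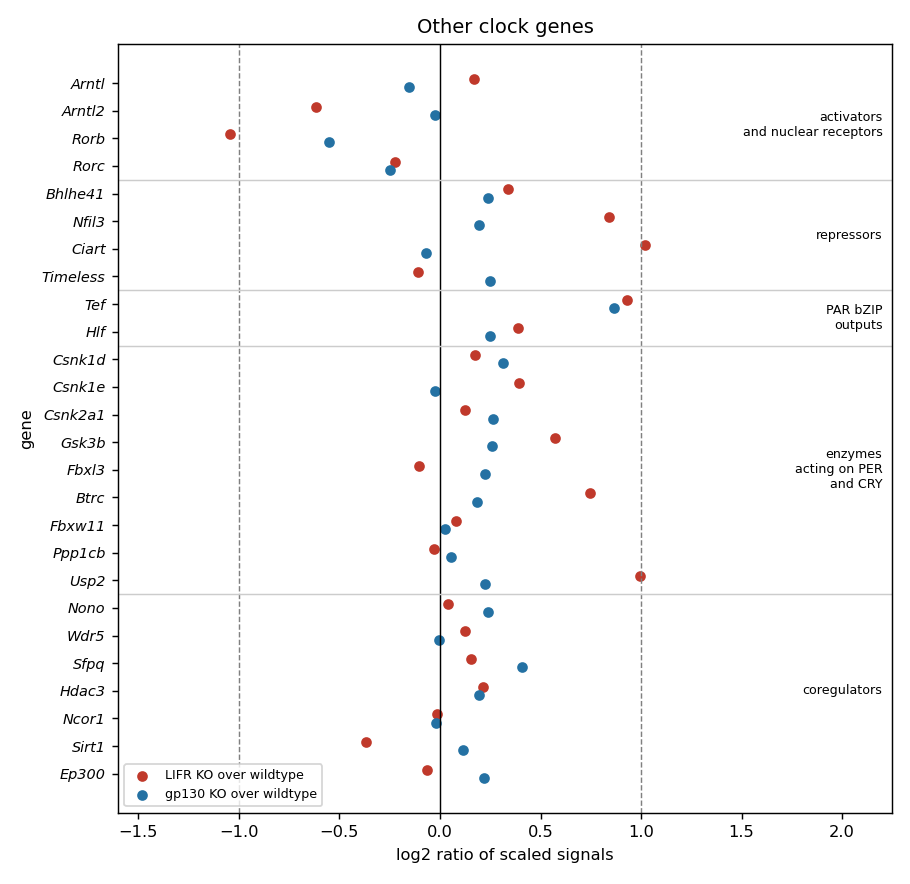
Log2 ratio of scaled signals over wildtype for the 26 measured other clock genes in the LIFR KO (upper point of each row) and the gp130 KO (lower point), grouped by role, with dashed lines at 2-fold. Ciart, at 1.02, and Rorb, at -1.05, pass the lines in the LIFR KO, and Tef lies near 0.9 in both knockouts.

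The genes whose pair of ratios to wildtype lay nearest to that of Per1 were sought among 12693 other genes well above background on all 3 arrays. The measure was the straight-line distance between the pairs of log2 ratios, over 3 arrays. The nearest was Slc8a1, a sodium-calcium exchanger gene, at log2 ratios of 2.36 in the LIFR KO and 0.14 in the gp130 KO. Gadd45g, of the growth arrest family, followed at 2.45 and 0.27, then Fsip2l at 2.13 and -0.27, the hyaluronidase gene Hyal1 at 2.51 and 0.42, and Snai1, a repressor of E-cadherin, at 2.09 and 0.09. Gadd45g and Snai1 were bright, with 4931 and 3186 on the LIFR KO array, while Slc8a1 and Fsip2l were dim there, at 69.0 and 60.3. Per1 itself was left out and Per3 was too dim to enter, and none of the other clock genes was among these 5. Cry2, at 2.10 and 0.15, had a pair of ratios close to that of Snai1.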

How the data were processed

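Cy3-labelled RNA of 3 samples was hybridised to single-colour Agilent arrays of design 026655, built on mm9 per the file headers, and no array coordinate is used here. The deposited intensity is the processed signal of Feature Extraction 11.0.1.1 per the file headers (9.1 per the submitters' processing notes), background-subtracted and not normalised between arrays, and comes with an error, a median spot and background intensity, and other flags of 0 or 1, all deposited. The deposited log2 values of the series matrix, whose columns share a median of 5.38, served as an alternative, and how the authors normalised them is not given in the sources used here.

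Outlier spots (97 to 222 an array) were left out, spots of a probe were averaged, and log2 signals were centred on the array's 75th percentile over non-control spots (750, 652 and 664 on the LIFR KO, gp130 KO and wildtype arrays). Accessions matched to RefSeq named 27234 of 39429 probes. A gene was read from its brightest probe, and compared where well above background on at least 1 of 2 arrays, with a bound where the other was dim. A probe counted as well above background where most of its spots were. Genes at least 2-fold apart were counted, without a test. High local background means over 1.5 times the array's median. Ratios were tested on simulated data. All arrays share 1 scan time in the headers. The number of arrays limits the precision. The members, lists and rules were chosen with earlier results of these data known. The rule named all members, Lifr, Il6st, listed genes at least 2-fold apart in a knockout over wildtype, 9 further clock genes and the 5 genes nearest to Per1. Markers dim on every array, Pou5f1 for its low signal and Dusp1 as shared by lists were named after their values were seen. The same holds for Nr4a1 and Atf3, named for their local background. Python 3.11.15 and, for normexp (offset 50) and quantile normalisation, limma 3.58.1 were used.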

Additional observations from a re-analysis of the deposited data

How the results depend on the processing

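Each value was recomputed under 13 alternatives. No clock gene ratio past 2-fold changed sign, and Per1 stayed at least 2-fold higher on the LIFR KO than on the wildtype array in all 13, at log2 ratios from 2.29 to 2.78. Centring on the median of detected probes moved the median of all genes to -0.50 for LIFR KO over wildtype and -0.60 for LIFR KO over gp130 KO. With it Per1 was at 2.29 and 2.49 in these comparisons, and the median of the clock genes at 0.20 and -0.15, and Nr1d1 was at 0.82 and Nr1d2 at -0.02 over wildtype. Normexp on all spots gave Per1 2.52 over wildtype and 2.71 over the gp130 KO, 2 clock genes 2-fold higher in the LIFR KO, and a clock gene median of 0.17 for gp130 KO over wildtype. Normexp without spots in high local background gave 2 such genes and Per1 at 2.87 over the gp130 KO. The second Dbp probe put the clock gene median at 1.28 for LIFR KO over wildtype and 0.85 over the gp130 KO, with 1 gene 2-fold higher in the gp130 KO, and the mean of all probes at 1.28 and 0.61. Counts over all genes moved far more, with 391 (90 to 672) higher and 237 (52 to 1342) lower for LIFR KO over wildtype, 146 (3 to 663) and 120 (28 to 599) for gp130 KO over wildtype, and 313 (65 to 588) and 191 (19 to 1392) for LIFR KO over gp130 KO. In the authors' deposited values Per1 had log2 ratios to wildtype of 2.74 in the LIFR KO and -0.28 in the gp130 KO. Leaving out a replicate was not possible with 1 array a group. No paired analysis was possible because each group has 1 array. Weak signal limits Per2, Nr1d1 and Hlf, and Per3 gives no value.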

Other observations

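Genes known to respond to the factor CREB and to the glucocorticoid receptor, both also known to act on Per1, were read from lists, with no test of either list or of their difference. Of 14 measured CREB-responsive genes, Fos at 4.27-fold, Junb at 2.44-fold, Nr4a2 at 2.39-fold and Fosb at 2.05-fold were higher on the LIFR KO than on the wildtype array, and Egr1 was 4.50-fold lower, against 2.69% higher and 1.63% lower over all genes. On the gp130 KO array none was 2-fold higher and Egr1 was 2.75-fold lower, against 0.979% and 0.805% over all genes. The median log2 ratio of this list was 0.35 in the LIFR KO and -0.26 in the gp130 KO. For LIFR KO over gp130 KO it was 0.89, where 6 of 14 were at least 2-fold higher, against 2.12% of all genes. Among those 6 were Nr4a1 and Atf3, at a log2 ratio of 1.14 each, whose spots lay in high local background. The AP-1 gene Fos had a signal of 214 on the LIFR KO, 25.0 on the gp130 KO and 44.3 on the wildtype array.

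Of 12 measured glucocorticoid-responsive genes, only the growth inhibitor gene Ddit4, at 2.83-fold, was at least 2-fold higher in the LIFR KO than in wildtype. None was 2-fold lower, and the median was -0.01. Over all genes 2.69% were higher and 1.63% lower by that bound. In the gp130 KO Angptl4, a regulator of lipid clearance, was 2.01-fold higher of 13 measured, against 0.979% of all genes. The median there was 0.07. Among 17 measured output genes of the clock, 4 of which are also in the list of other clock genes, Lpin1, an enzyme of lipid synthesis, was 2.33-fold higher in the LIFR KO by 1 of 2 probes, the other being not well above background on any array. Lpin1 was the only gene of the 17 past 2-fold in the LIFR KO, beside 2.69% higher over all genes. None of the 17 passed 2-fold in the gp130 KO, where 0.979% of all genes were higher and 0.805% lower. Nothing is read from such counts. The medians were 0.14 in the LIFR KO and 0.07 in the gp130 KO. These lists share the arrays and Dusp1 is in both of the first 2, and their link to Per1 was not tested.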
